A study of Mus musculus with 8 samples.

Results

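The corticosteroid receptor genes Nr3c1 and Nr3c2 and 6 genes known as targets of glucocorticoid hormone (Fkbp5, Sgk1, Tsc22d3, Zbtb16, Mt1 and Mt2) were examined in the subventricular zone of 3xTg and wild-type (WT) mice. The members were all probes whose gene symbol in the platform annotation was one of these 8, which gave 10 of the 32684 probes and 8 of the 21363 named genes; Nr3c1 and Mt1 had 2 probes each and the other genes had 1. The rule itself uses gene names only, but the members were chosen with earlier results of these data known. Total RNA was taken from this zone, dissected out of forebrain sections of female mice aged 7 months, as 4 samples of 3xTg and 4 of WT, and both groups are labelled with one strain background, C57BL/6J females crossed to 129S1/SvImJ males. 3xTg mice model Alzheimer's disease and carry, among other changes, transgenes for human APP and MAPT under a Thy1 cassette that is active in neurons, and the WT mice are the strain's control. Samples with the same replicate number were hybridised together on a 2-colour array, and by the label field Cy5 marks 3xTg and Cy3 marks WT on all 4 arrays. The labelling protocol of every sample names Cy3 nonamers alone, so the use of Cy5 rests on the label field. By that field genotype and dye cannot be told apart in any difference below. Whether a sample came from 1 mouse or several is not given in the labels; the design text calls the replicates biological.

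Glucocorticoids, corticosterone in mice, enter cells and bind receptors that are held in the cytoplasm by chaperones, then move to the nucleus and act on transcription. The mineralocorticoid receptor, encoded by Nr3c2, binds corticosterone with higher affinity than the glucocorticoid receptor, encoded by Nr3c1, and the latter is engaged mainly when hormone is high, as in stress or at the daily peak. In the brain both receptors occur in neurons and glia, and glucocorticoids are known to restrain adult neurogenesis. The dimeric receptor binds a pair of inverted hexamers separated by a short spacer, the glucocorticoid response element.

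Promoter windows of Sgk1, Mt1 and Mt2 are shown because each held a match to the element marked in it. Windows of Mt1 and Mt2 were marked for the metal response element and those of the other members searched for the full glucocorticoid element. Searched windows without a match are not shown. The Sgk1 window is 1 of 6 for that gene. Whether the measured transcripts of Sgk1, Mt1 and Mt2 start in the windows shown is not known here. Sequences are from RefSeq (GRCm38.p6), 5′ to 3′ on the gene's strand. Each runs from 250 bases before to 50 bases after an annotated start. The search covered 13 such windows of 6 members. Of these, 6 were of Sgk1, 3 of Tsc22d3 and 1 each of Nr3c2, Fkbp5, Mt1 and Mt2. Nr3c1 and Zbtb16 were not searched. The source held no window for Zbtb16, and member windows on the chromosome of Nr3c1 were left out before the search. The windows of all genes kept that chromosome. The exact element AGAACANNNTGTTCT, which reads the same on both strands, was present in 3 of all 32851 windows (0.00913%) and in 1 of the 13, a window of Sgk1, where its first base is at -189 relative to the start site. Its single hexamer AGAACA, searched on both strands and contained in the full element, was in 4 of the 13 windows and in 19.0% of all. Among the 6 members searched, these windows were of Sgk1 and Tsc22d3 only. The core of the metal response element, bound by the zinc sensor encoded by Mtf1, was searched as TGCACNC or TGCGCNC on both strands. It was in 4 of the 13 windows and in 25.7% of all, with 4 matches in Mt2 and 3 in Mt1. The other member windows with a match were of Nr3c2 and Sgk1. Capitals mark the full glucocorticoid element in the Sgk1 window and the metal element cores in the windows of Mt1 and Mt2.
Sgk1, chr10:21993640-21993939, plus strand: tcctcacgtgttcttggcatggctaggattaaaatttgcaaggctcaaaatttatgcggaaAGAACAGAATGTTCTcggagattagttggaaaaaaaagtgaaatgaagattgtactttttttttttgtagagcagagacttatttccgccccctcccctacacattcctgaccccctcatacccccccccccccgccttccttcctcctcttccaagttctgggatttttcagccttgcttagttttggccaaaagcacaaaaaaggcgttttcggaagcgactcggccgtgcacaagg
Mt1, chr8:94178839-94179138, plus strand: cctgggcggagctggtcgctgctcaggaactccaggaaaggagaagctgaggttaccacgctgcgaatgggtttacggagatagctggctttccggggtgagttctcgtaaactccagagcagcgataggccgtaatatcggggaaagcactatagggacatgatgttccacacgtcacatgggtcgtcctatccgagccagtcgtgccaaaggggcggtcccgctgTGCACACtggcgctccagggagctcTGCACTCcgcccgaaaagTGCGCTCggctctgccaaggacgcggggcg
Mt2, chr8:94172368-94172667, plus strand: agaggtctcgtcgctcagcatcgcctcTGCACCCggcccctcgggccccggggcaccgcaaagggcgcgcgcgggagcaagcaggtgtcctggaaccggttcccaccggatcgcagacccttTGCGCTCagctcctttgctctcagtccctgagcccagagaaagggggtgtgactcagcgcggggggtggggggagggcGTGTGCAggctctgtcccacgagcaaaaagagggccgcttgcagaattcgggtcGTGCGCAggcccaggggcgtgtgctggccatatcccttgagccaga
A match describes these letters and is not evidence that a factor bound there.

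None of the 10 member probes passed between genotypes. Values are log2 intensities normalized by the authors, each difference is 3xTg minus WT within arrays, errors of differences are standard errors (SE), and a probe was called when its limma p, adjusted by the Benjamini-Hochberg method over all 32684 probes, was under 0.05. By this rule 0 of 10 member probes were called, against 1.22% of all probes. At an unadjusted p under 0.05 there were 3 of 10, against 18.0% of all probes, namely one Nr3c1 probe, one Mt1 probe and the Zbtb16 probe. Differences had the same sign on 4 of 4 arrays for 2 of 10 probes, against 25.4% of all, and the 3xTg and WT samples overlapped for all 10 probes, where 4.53% of all probes did not overlap. The median difference of the 10 was -0.04, against 0.0088 over all probes. Their SEs ran from 0.09 to 0.30. No member probe was at the highest value of a sample or among the dimmest 25% of probes.

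The receptor genes lay above 0 in 3xTg without passing. At its brighter probe (A_55_P1967885) Nr3c1, the glucocorticoid receptor, measured 11.89, 12.30, 12.12 and 12.81 in the 3xTg samples of replicates 1 to 4 and 11.74, 12.07, 11.90 and 12.17 in the WT samples. The 3xTg sample was the higher one on every array, most on array 4, although the groups overlapped. The difference was 0.31 ± 0.11 (SE, 4 arrays; 95% confidence interval 0.05 to 0.57; limma adjusted p = 0.22), which is 1.24-fold. Without replicate 4 it was 0.20 (adjusted p = 0.408). The second Nr3c1 probe (A_52_P254174) averaged 10.16 ± 0.36 over the 3xTg samples and 9.97 ± 0.14 over the WT samples (SD), and its difference of 0.19 (interval -0.10 to 0.49, limma adjusted p = 0.471) came from arrays 3 and 4, at 0.40 and 0.48, with -0.05 and -0.06 on arrays 1 and 2. Both probes are annotated to the transcript NM_008173.

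Nr3c2, the mineralocorticoid receptor, measured 11.62, 12.37, 11.89 and 12.51 in 3xTg and 11.92, 12.11, 11.56 and 12.11 in WT. The 3xTg sample was higher on arrays 2 to 4 and lower on array 1. Its difference was 0.18 ± 0.13 (SE; 95% interval -0.14 to 0.49; limma adjusted p = 0.532), and 0.33 without replicate 1 (adjusted p = 0.28). For neither receptor do these arrays exclude an increase of about 1.4-fold.

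**Figure D1:**
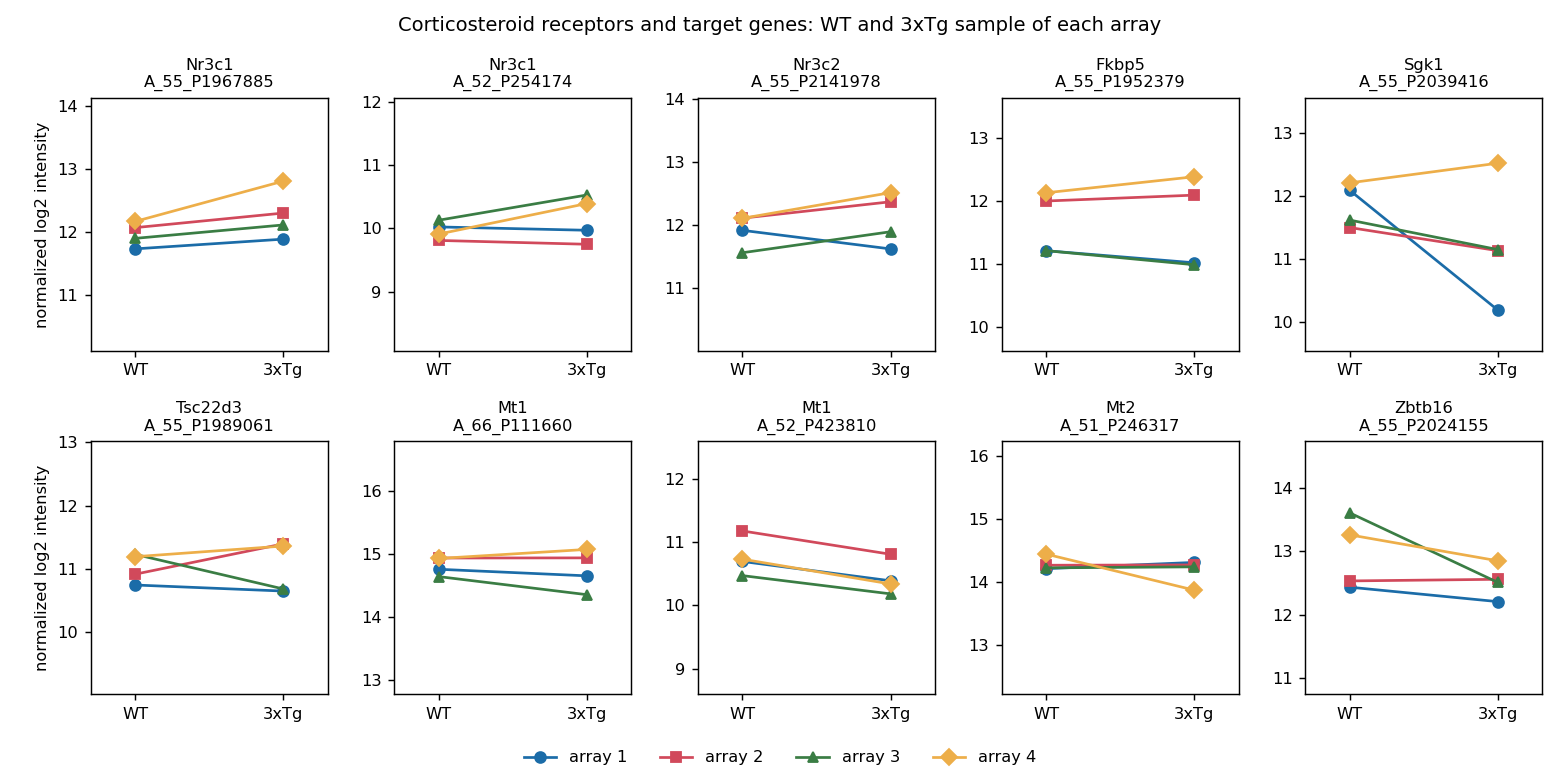
Normalized log2 intensity of each member probe in the WT (left) and 3xTg (right) sample of each array; each line joins the samples of 1 array, and every panel spans 4 log2 units. WT and 3xTg samples overlap in all 10 panels, and Fkbp5 separates arrays 2 and 4 from arrays 1 and 3 in both genotypes.

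Fkbp5 encodes a co-chaperone of the receptor complex that lowers the receptor's affinity for hormone, and it is itself induced by the receptor. It measured 11.02, 12.09, 10.99 and 12.38 in 3xTg and 11.21, 12.00, 11.21 and 12.13 in WT. The samples of arrays 2 and 4 were high and those of arrays 1 and 3 low in both genotypes. The difference between genotypes was -0.02 ± 0.11 (SE; 95% interval -0.28 to 0.25; limma adjusted p = 0.961), so a 3xTg level below 0.82 or above 1.19 times that of WT lies outside the interval. Tsc22d3, the glucocorticoid-induced leucine zipper, measured 10.65, 11.39, 10.68 and 11.36 in 3xTg and 10.74, 10.91, 11.23 and 11.19 in WT. Its arrays pointed both ways, with 0.48 on array 2 and -0.55 on array 3, for a difference of 0.0011 ± 0.16 (interval -0.38 to 0.38, adjusted p = 0.998). The annotation gives this probe the transcript NM_001077364, and whether it also reads the other Tsc22d3 transcripts is not known here.

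Sgk1 had the most widely spread differences of the 10 probes. It encodes a serum- and glucocorticoid-induced kinase that promotes sodium transport and is also induced by neuronal activity. It measured 10.19, 11.13, 11.15 and 12.51 in 3xTg and 12.09, 11.50, 11.61 and 12.20 in WT. The 3xTg sample of array 1 was the lowest of the 8 and that of array 4 the highest, and all WT samples lay between them. The differences on arrays 1 to 4 were -1.90, -0.37, -0.47 and 0.31, and only 0.523% of all probes had differences as widely spread (SD 0.93). The mean difference was -0.60 ± 0.30 (SE; 95% interval -1.31 to 0.10; limma adjusted p = 0.346), and without replicate 1 it was -0.17 (adjusted p = 0.683).

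**Figure D2:**
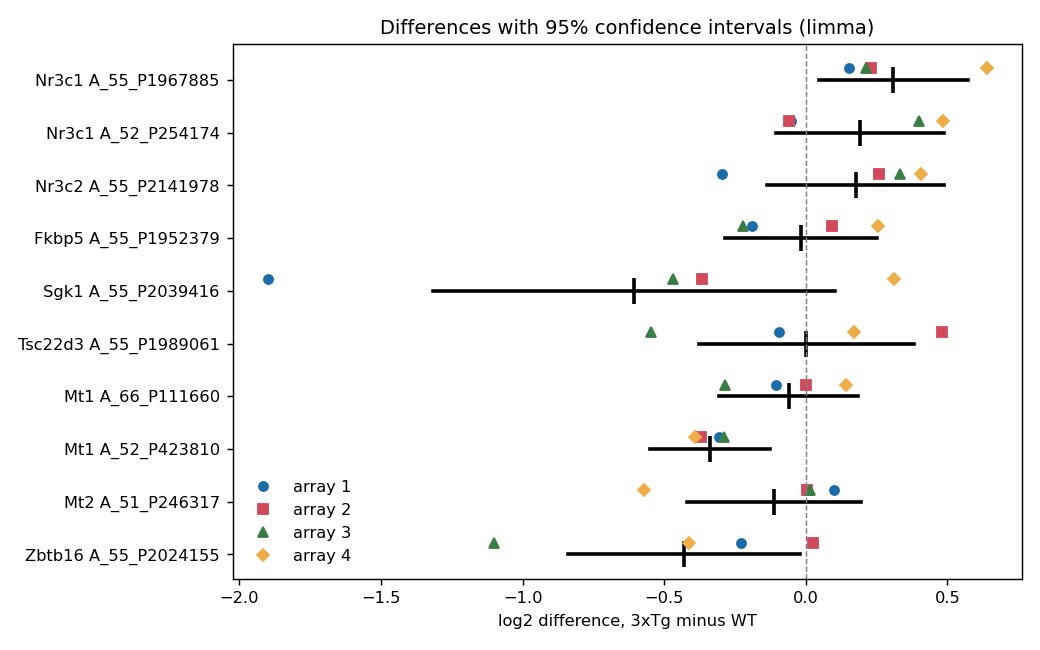
Log2 difference, 3xTg minus WT, for each member probe; bars are 95% confidence intervals of the limma fit, ticks are means and symbols are the 4 arrays. The Sgk1 difference on array 1 is -1.90, and the 4 arrays of the Mt1 probe A_52_P423810 lie between -0.39 and -0.29.

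Zbtb16, a zinc finger transcription factor known as PLZF that glucocorticoids induce in several tissues, measured 12.20, 12.56, 12.51 and 12.85 in 3xTg and 12.43, 12.53, 13.61 and 13.26 in WT. The WT samples of arrays 3 and 4 were the highest. Differences were -0.23, 0.03, -1.10 and -0.41 on the 4 arrays, with a mean of -0.43 ± 0.18 (SE; 95% interval -0.84 to -0.02; limma adjusted p = 0.26). Without replicate 3 the mean was -0.20 (adjusted p = 0.401).

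Mt1 and Mt2 are neighbouring genes that encode metallothioneins, small proteins that bind zinc and copper, and both respond to metals as well as to glucocorticoids. Their transcripts are alike, and how well each probe tells them apart is not known here. At the brighter Mt1 probe (A_66_P111660) values were 14.65, 14.94, 14.36 and 15.07 in 3xTg and 14.76, 14.94, 14.64 and 14.93 in WT, with a difference of -0.06 ± 0.11 (SE; 95% interval -0.31 to 0.19; limma adjusted p = 0.806). The other Mt1 probe (A_52_P423810, annotated to the cDNA AK154954) was at 10.39, 10.81, 10.18 and 10.34 in 3xTg and 10.69, 11.18, 10.47 and 10.73 in WT. It was lower in 3xTg on every array and by nearly the same amount, -0.31, -0.37, -0.29 and -0.39. Its difference of -0.34 ± 0.09 (95% interval -0.55 to -0.13) had the smallest p of the 10 probes (limma adjusted p = 0.127), and 98.2% of all probes had differences at least as widely spread. The difference of this probe minus that of the brighter one was -0.20, -0.37, -0.0027 and -0.54 on arrays 1 to 4, so the probes gave nearly the same difference on array 3; this comparison was chosen after the values were seen and has no test.

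Mt2 measured 14.31, 14.27, 14.24 and 13.87 in 3xTg and 14.21, 14.27, 14.23 and 14.44 in WT. On arrays 1 to 3 the samples differed by at most 0.10, and on array 4 the 3xTg sample was lower by 0.57. The mean difference was -0.11 ± 0.13 (SE; 95% interval -0.42 to 0.19; limma adjusted p = 0.698), and 0.04 without replicate 4. The samples of array 4 therefore differed in opposite directions for Mt2 (-0.57) and for the brighter Mt1 probe (0.14).

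At 4 of the 10 probes, those of Nr3c1 (brighter), Fkbp5 and Mt1 (both), the array means spread more widely than the differences within arrays. The share of all probes with this order was not computed. Over all probes the median SD was 0.26 for array means and 0.23 for differences, against 0.28 and 0.30 for the members. A mean of 2 samples varies less than their difference when arrays are alike, so these SDs are not on one scale. For Fkbp5 the means of the WT and 3xTg sample on arrays 1 to 4 were 11.12, 12.04, 11.10 and 12.25, an SD of 0.61 that 7.18% of all probes reached, while its 4 differences had an SD of 0.23, reached by 49.2%. At 5 of the 10 member probes both array means 2 and 4 lay above those of arrays 1 and 3, against 21.2% of all probes; these were the brighter probes of Nr3c1 and Mt1 and the probes of Nr3c2, Fkbp5 and Tsc22d3. Mt2 was nearly level, with an SD of array means of 0.05 that 98.5% of all probes reached. This pattern was chosen after the values were seen and has no test. The samples of an array share a hybridisation, so a level common to an array cannot be told apart from one common to its mice. Over the 31 further glucocorticoid targets described below, the median array means lay at -0.05, 0.02, -0.04 and 0.09 from their own average. Over the brightest probes of all genes they lay at -0.01, -0.01, 0.03 and -0.01. The order was not particular to targets: for the astrocyte markers described below the values were -0.01, 0.11, -0.05 and 0.08. Markers of striatal projection neurons had another order, at -0.37, -0.50, 0.32 and 0.62.

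**Figure D3:**
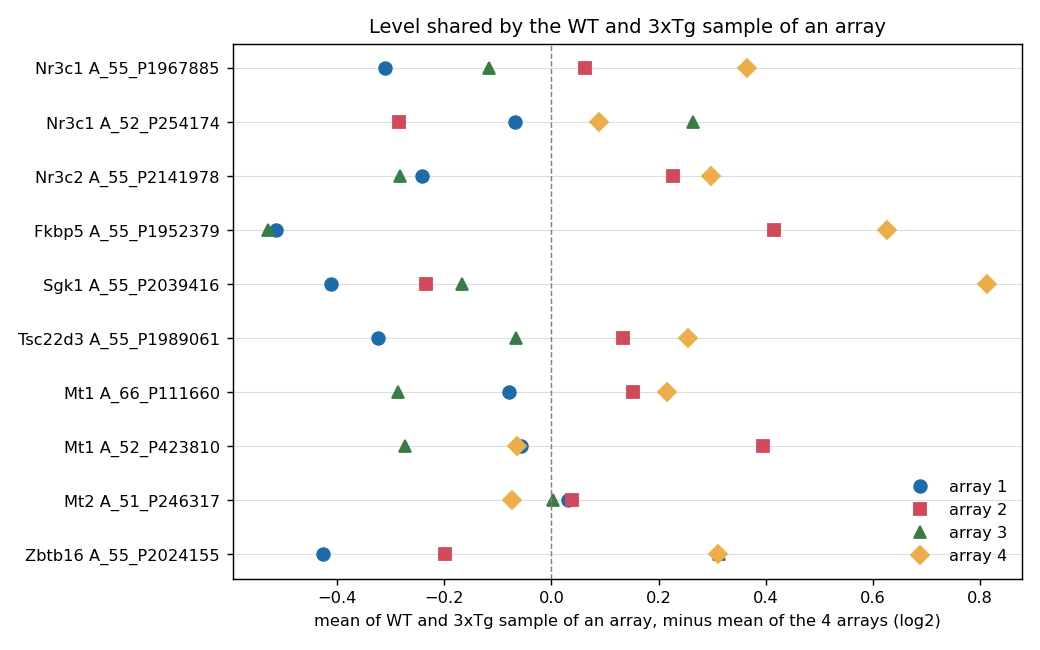
Mean of the WT and 3xTg sample on each array, minus the mean of the 4 arrays, for each member probe in log2 units; symbols are arrays. Fkbp5 lies at -0.51 and -0.53 on arrays 1 and 3 and at 0.42 and 0.63 on arrays 2 and 4, while Mt2 stays between -0.07 and 0.04.

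The differences were set beside markers of the cell types that the dissection can hold, each gene at its brightest probe. Markers of striatal projection neurons, whose tissue borders the zone, had median differences of -2.18, -1.72, 0.32 and -0.34 on arrays 1 to 4, and 9 of 9 lay below 0 on array 1. Immediate early genes, which neuronal activity induces, had medians of -1.08, -0.43, -0.02 and 0.32. Of these genes 10 of 11 lay below 0 on array 1 and 9 of 11 above 0 on array 4. Over the brightest probes of all genes, 9503 of 21363 lay below 0 on array 1 and 10572 above 0 on array 4. Sgk1, like the immediate early genes, was lowest on array 1 and highest on array 4. This likeness was picked out after the values were seen and has no test. The mean level of the striatal markers ran from 12.34 to 14.28 over the 3xTg samples and from 13.90 to 14.51 over the WT samples, and that of the immediate early genes from 11.07 to 11.66 and from 11.43 to 11.96. Cortical and hippocampal glutamatergic markers had medians of -0.71, -1.46, -0.69 and 0.39. The part of tissue composition in the Sgk1 values was not tested. In bulk tissue fewer cells of a type and less RNA per cell cannot be told apart.

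Other marker lists moved less or differently. Oligodendrocytes are known to express Sgk1, and their markers lay at -0.17, 0.58, 0.74 and 0.41 on arrays 1 to 4, with all 10 measured genes above 0 on average. Astrocyte markers had a median of 0.17 (8 of 11 above 0), endothelial and pericyte markers 0.06 (8 of 13), choroid plexus markers 0.18 (5 of 9) and microglial markers -0.03 (2 of 8 above 0). Ependymal markers and progenitor and neuroblast markers, which define the labelled tissue, had medians of -0.04 and -0.02; 8 of 9 and 7 of 9 were brighter than the dimmest 25% of probes, and detection could not be assessed further. Among these lists the median turned sign for endothelial and pericyte markers without replicate 3 (-0.02), for ependymal markers without replicate 1 (0.06) or 4 (0.02), and for progenitor and neuroblast markers without replicate 1 (0.04); it was 0.10 without replicate 1 for astrocyte and without replicate 3 for choroid plexus markers, and -0.12 for microglial markers without replicate 3 or 4. Of the 105 marker genes 2 passed (limma, over all probes), against 1.22% of all probes, both among the 7 septal and cholinergic markers, where the array medians were 1.40, 0.99, 0.43 and 0.05: the transcription factors Isl1 (0.71, adjusted p = 0.0429) and Zic1 (1.49, adjusted p = 0.0496). Without replicates 1, 2, 3 and 4 in turn the adjusted p was 0.147, 0.345, 0.0436 and 0.0793 for Isl1 and 0.147, 0.345, 0.0686 and 0.0266 for Zic1. With no array term neither passed (0.17 and 0.177), nor with quantile normalization (0.0559 and 0.0732), and Zic1 did not pass with trend and robust moderation (0.0643) or without the dimmest 25% of probes (0.0579).

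**Figure D4:**
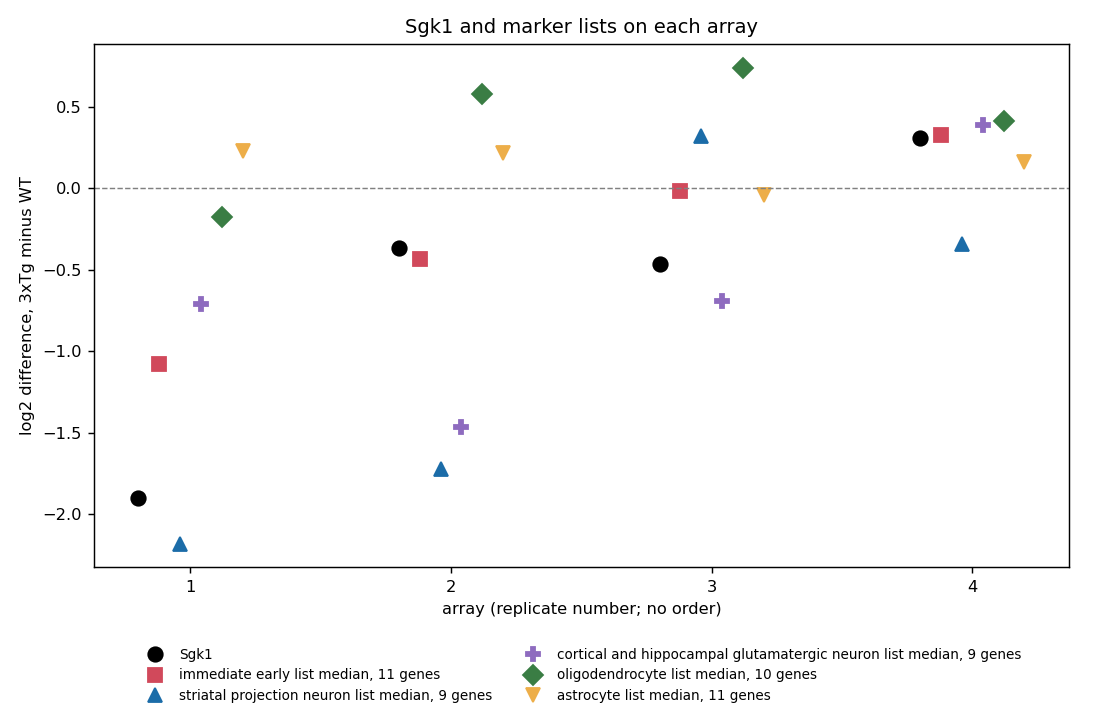
Log2 difference, 3xTg minus WT, of Sgk1 and the median difference of 5 marker lists on each array. Sgk1 and the immediate early genes are both lowest on array 1 (-1.90 and -1.08) and both above 0 on array 4 (0.31 and 0.32). The septal and cholinergic list, not drawn, had medians from 1.40 on array 1 to 0.05 on array 4.

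Other genes of the pathway were taken from fixed lists, and 0 of the 104 measured genes passed at their brightest probe (limma over all probes, against 1.22% of all probes); 21 had an unadjusted p under 0.05, against 18.0% of all probes. Among 31 further glucocorticoid targets 18 lay below 0 and 13 above, with a median of -0.06 (-0.02 without replicate 1, -0.03 without replicate 4) against 0.01 over the brightest probes of all genes. The smallest p were those of Nfkbia, the inhibitor of NF-kappaB (-0.62 ± 0.12, SE, adjusted p = 0.0678), the Krüppel-like factor Klf9 (-0.53 ± 0.11, adjusted p = 0.0812) and the hypoxia-inducible factor subunit Hif3a (-0.46 ± 0.11, adjusted p = 0.0979), each lower in 3xTg on 4 of 4 arrays. Alternative fits, with the array as a random block and with trend and robust moderation, gave Nfkbia an adjusted p of 0.0159 and 0.0271 and Klf9 one of 0.023 and 0.0394, and leaving out saturated probes gave Nfkbia 0.0345. Over the other alternatives neither passed: without the array term the adjusted p was 0.349 and 0.464, and with 1 array left out it ran from 0.0941 to 0.2 for Nfkbia and from 0.0648 to 0.444 for Klf9. The clock gene Per1, which glucocorticoids induce, passed at a probe that was not its brightest (A_55_P1970033, -0.77 ± 0.10, limma adjusted p = 0.0213). At the brightest it differed by 0.25 (adjusted p = 0.602). These probes were nearly equally bright, at mean levels of 11.843 and 11.895. The call at A_55_P1970033 was lost without replicate 1 (adjusted p = 0.0692), without replicate 2 (adjusted p = 0.213) and with no array term (adjusted p = 0.204). The probe is named here after its value was seen.

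Genes that act with the receptors did not pass in the main fit either. Chaperones of the receptor complex lay above 0 in 10 of 12 cases, against 52.6% of the brightest probes of all genes, with a median of 0.17 that was 0.08 without replicate 1; Hsp90aa1, a heat shock protein that holds the receptor ready for hormone, differed by 0.35 ± 0.11 (SE, limma adjusted p = 0.178) and the co-chaperones Ptges3 and Ppid by 0.22 and 0.18. The array medians of this list were 0.32, 0.20, 0.01 and 0.02. Coregulators of nuclear receptors lay below 0 in 7 of 9 cases, against 10124 of 21363 brightest probes of all genes. Their median was -0.15, and -0.23 without replicate 1, with array medians of -0.07, -0.20, -0.26 and -0.29. Nrip1, a corepressor, differed by -0.52 ± 0.11 (limma adjusted p = 0.0746), the chromatin remodeller Smarca4 by -0.34 and the coactivator Ncoa1 by -0.45. Nrip1 passed with the random block (0.0293), with trend and robust moderation (0.041) and without saturated probes (0.0492), and its adjusted p was 0.626 with no array term and 0.0579 to 0.476 with 1 array left out.

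Steroid enzymes and carriers had a median of 0.10, with 6 of 10 above 0; the median was 0.03 without replicate 4, 0.06 without replicate 2, 0.16 without replicate 3 and 0.03 without the dimmest 25% of probes. Hsd11b1, which regenerates active glucocorticoid inside cells, differed by 0.19 ± 0.09 (SE, limma adjusted p = 0.347). Cyp11b1, which makes corticosterone in the adrenal gland, differed by 0.44 (adjusted p = 0.0723) and Akr1c14, a steroid dehydrogenase, by 0.36 (adjusted p = 0.134); the mean levels of both lay below the limit of the dimmest 25% of probes, 8.66, so these are values of dim probes. In the corticotropin-releasing hormone system 6 of 9 genes lay above 0, with a median of 0.14 (0.07 without the dimmest 25% of probes), and its receptors Crhr2 and Crhr1 differed by 0.60 and 0.24 (adjusted p = 0.178 and 0.245). The Crhr2 difference was 0.39 without replicate 3, and its mean level of 8.74 lay just above the limit of 8.66. Effectors of the mineralocorticoid receptor and of Sgk1 had a median of 0.07 over 9 genes (0.04 without replicate 1), with Foxo3, a transcription factor that Sgk1 phosphorylates, at -0.65 ± 0.16 (adjusted p = 0.112; 0.0498 with trend and robust moderation, its lowest over the alternatives, and 0.997 with no array term, its highest). The sodium channel subunit Scnn1b was at 0.28.

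Among metallothioneins and genes of zinc handling the median was 0.0071 over 11 genes, and between -0.07 and 0.04 with 1 array left out. Mt3, the metallothionein of neurons and astrocytes, differed by -0.24 ± 0.13 (SE, limma adjusted p = 0.352) and the synaptic zinc transporter Slc30a3 by -0.68 ± 0.29 (adjusted p = 0.28). Without replicate 3 these were -0.13 and -0.28, and the Slc30a3 differences on arrays 3 and 4 were -1.87 and 0.29. The mean level of Slc30a3 was 8.30, below the limit of the dimmest 25% of probes, 8.66, so these are values of a dim probe. Relatives of the members had a median of -0.04 over 13 genes (-0.0058 without replicate 1 and 0.0034 without replicate 4); the smallest p were those of Zbtb7a, a zinc finger factor (-0.46, adjusted p = 0.069), and of Fkbp2, an endoplasmic reticulum immunophilin (-0.62, adjusted p = 0.0967). Both passed with the random block (0.0229 and 0.0263) and with trend and robust moderation (0.0411 and 0.0415), while with no array term the adjusted p was 0.602 and 0.32, and with 1 array left out it ran from 0.0807 to 0.444 for Zbtb7a and from 0.0573 to 0.507 for Fkbp2.

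The genes whose values over the 8 samples followed each member most closely, by Pearson r at the member's brightest probe, were not among the genes of the lists above. For Fkbp5 they were Cdc42ep5 and Nup214 (r = 0.996 and 0.995), and for Sgk1 they were Ctdsp1 and Add2 (r = 0.984 and 0.981). For Nr3c1 they were Xpr1 and Tor3a (r = 0.985 and 0.98), and for Nr3c2 Elovl1 and Mob3c (r = 0.972 and 0.964). Zbtb16 was followed by BC037032 and Gmppa (r = 0.977 and 0.969), Tsc22d3 by Rpl7 and Cbfb (r = 0.969 and 0.967), Mt1 by Bloc1s6 and Calu (r = 0.99 and 0.984) and Mt2 by Vat1l and Suclg1 (r = 0.966 and 0.941). These are the highest of all named probes over 8 samples that share 4 arrays, and they are a description with no test.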

How the data were processed

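The authors deposited normalized log2 intensities, 1 per probe in each sample; the log2 scale was read from the values, which end just under 16. Limma is named, without a version, per the submitters' processing notes; the sources used here do not state the background correction, the normalization or any probe filter. With scanner files not analysed here, no probe's detection above background was assessed. Sample medians lay between 10.12 and 10.15, and precision is limited by the 4 arrays. Probes were named through the platform annotation, and all 8 members had an Entrez identifier.

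All 32684 probes were fitted together with limma 3.58.1 in R 4.3.3, with array and genotype as fixed effects and Benjamini-Hochberg adjustment at 0.05. The labels give the samples of a replicate number 1 scanner file. Their deviations from the group means correlated at r = 0.78, 0.78, 0.54 and 0.82. Between a 3xTg and a WT sample of different arrays r was at most 0.18. Taking deviations from group means lowers the latter by construction, so part of this contrast is built in. Named genes were all members at every probe, up to 3 genes of smallest p and any that passed in each list, and the 2 genes of highest r with each member; marker lists are given by medians and passed genes only. Each list gene stands for its brightest probe. The members and lists were chosen with earlier results of these data known. Alternatives were no array term, a random array block (statmod 1.5.0), median centring, quantile normalization, loess within arrays (span 0.3), trend and robust moderation, leaving out the dimmest 25% or saturated probes, leaving out each array, and averaging the probes of a gene. The fit was tested on simulated data.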

Additional observations from a re-analysis of the deposited data

Results flagged for a closer look

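Of 30 sets of 4 values (the differences, the 3xTg values and the WT values of each member probe), 3 held a value far from the other three by Dixon's criterion at its 95% critical value, which chance passes in about 5% of sets. All 3 were on array 4. The Nr3c1 difference at A_55_P1967885 was 0.64 there. The Mt2 difference was -0.57, and the 3xTg value of Mt2 was 13.87, with the other 3xTg samples between 14.24 and 14.31. This difference is computed from that 3xTg value, so the Mt2 flags are not independent. The sets of any probe are linked in the same way.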

How the results depend on the processing

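The count of member probes that passed was 0 under the main fit and under all 13 alternatives, and the lowest adjusted p of a member in any of them was 0.0955 (Mt1 at A_52_P423810). Signs reversed only for members near 0. With each array left out in turn, Fkbp5 ran from -0.107 to 0.052 (above 0 without replicate 1 or 3), Tsc22d3 from -0.158 to 0.184 (below 0 without replicate 2 or 4), Mt2 from -0.183 to 0.0399 (above 0 without replicate 4) and Mt1 at A_66_P111660 from -0.129 to 0.0139 (above 0 without replicate 3). Tsc22d3 was -0.00099 with loess. Over all probes, 203 higher and 197 lower calls became 47 and 31 with no replicate block, 551 and 758 with the array as a random block, 132 and 115 with quantile normalization, 405 and 500 with trend and robust moderation, 351 and 411 without saturated probes, and 119 and 128 with probes averaged per gene. Leaving out 1 array gave 12 to 185 higher and 19 to 229 lower calls, fewest without replicate 2. Pathway genes passed in 6 cases with the random block, 6 with trend and robust moderation and 2 without saturated probes. Marker genes passed in 0 cases with no replicate block, 8 with the random block, 0 with quantile normalization, 5 with trend and robust moderation, 1 without the dimmest probes, 6 without saturated probes and 0 to 6 with 1 array left out. The cause of these changes was not tested. List results were not computed on gene averages. A change confined to a small share of cells could be missed in bulk tissue on 4 arrays, and dye cannot be told apart from genotype.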
